A study of Mus musculus with 29 samples.

Results

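The 10 genes described here encode the receptors for TGF-beta (Tgfbr1, Tgfbr2 and Tgfbr3), the Smads that those receptors activate (Smad2 and Smad3), and regulators that restrain the pathway (Smad7, Ski, Skil, Ldlrad4 and Pmepa1). They were selected by name among the 55414 Ensembl identifiers in the count files, of which 52081 were matched to a mouse gene symbol. All 10 were among the 14375 genes that passed the filter on low counts and were tested. Messenger RNA was sequenced from CD4+ T cells purified from the spleens of C57BL/6-Foxp3tm1Flv/J mice, in which a red fluorescent protein (RFP) marks cells that transcribe Foxp3, the factor that defines regulatory T cells. Every culture was stimulated with antibodies to CD3 (1.25 µg/ml) and CD28 (2.5 µg/ml) and held 50 IU/ml interleukin 2 and 50 µM mercaptoethanol in RPMI with 0.5 mM glucose. The variables were TGF-beta (3 ng/ml), lactic acid (10 mM), time (72 or 24 h) and the sorted population. RFP-positive cells (Treg) were collected at 72 h from medium with TGF-beta plus lactic acid (3 libraries) and with TGF-beta alone (3). RFP-negative cells (Tcon) were collected at 72 h from TGF-beta plus lactic acid (3), TGF-beta (3), lactic acid (3) and neither addition (2, replicates 1 and 2), and at 24 h from the same 4 media (3 each). That makes 10 groups and 29 libraries. Replicate 1 was from male and replicates 2 and 3 from female mice. The Treg are RFP-positive cells of TGF-beta cultures, so no Treg group without TGF-beta is included.

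TGF-beta binds the kinase receptor TGFBR2, which recruits and activates the kinase TGFBR1; the coreceptor TGFBR3 (betaglycan) presents ligand to them. TGFBR1 phosphorylates SMAD2 and SMAD3, which join SMAD4 and act on transcription in the nucleus. SMAD7 blocks TGFBR1 and brings ubiquitin ligases to it, SKI and SKIL (SnoN) are corepressors that bind the Smads, and LDLRAD4 and PMEPA1 are membrane proteins that hold SMAD2 and SMAD3 away from the receptor. Several of these inhibitors are themselves known targets of the pathway, which gives a negative feedback. In activated CD4+ T cells, TGF-beta with interleukin 2 induces Foxp3.

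Promoter windows of 4 of the 10 genes, Tgfbr1, Tgfbr2, Smad3 and Ski, were taken from the RefSeq promoter table of build GRCm38.p6 and searched. Tgfbr3, Skil and Pmepa1 had no entry there, and windows of Smad2, Smad7 and Ldlrad4 were not searched. Of the 4 genes shown, 3 rose with TGF-beta in every comparison below and Smad3 did not. Whether the window of Smad2, which did not rise either, holds the motifs below was not tested. Each window holds 300 bases, 5′ to 3′ on the gene's strand. The Tgfbr1 window is chr4:47352972-47353271 (plus strand), that of Tgfbr2 chr9:116175314-116175613 (minus), that of Smad3 chr9:63757945-63758244 (minus) and that of Ski chr4:155222486-155222785 (minus). Capitals mark matches, on either strand, to 4 motifs: GTCTAGAC (the palindromic Smad element), CAGAC (its shorter form), GGCGC (a GC-rich Smad motif) and TGANTCA (AP-1).
Tgfbr1: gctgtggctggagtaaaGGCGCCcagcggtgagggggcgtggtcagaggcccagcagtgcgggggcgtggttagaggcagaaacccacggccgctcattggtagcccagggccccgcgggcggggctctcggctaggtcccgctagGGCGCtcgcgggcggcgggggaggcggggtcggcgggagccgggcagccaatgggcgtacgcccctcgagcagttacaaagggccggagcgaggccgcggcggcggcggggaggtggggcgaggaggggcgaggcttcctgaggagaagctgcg
Tgfbr2: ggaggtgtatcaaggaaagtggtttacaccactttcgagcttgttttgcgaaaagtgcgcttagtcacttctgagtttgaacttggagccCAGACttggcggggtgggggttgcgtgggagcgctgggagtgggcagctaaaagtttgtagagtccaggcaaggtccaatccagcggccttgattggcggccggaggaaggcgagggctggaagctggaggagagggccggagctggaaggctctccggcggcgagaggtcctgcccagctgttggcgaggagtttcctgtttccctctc
Smad3: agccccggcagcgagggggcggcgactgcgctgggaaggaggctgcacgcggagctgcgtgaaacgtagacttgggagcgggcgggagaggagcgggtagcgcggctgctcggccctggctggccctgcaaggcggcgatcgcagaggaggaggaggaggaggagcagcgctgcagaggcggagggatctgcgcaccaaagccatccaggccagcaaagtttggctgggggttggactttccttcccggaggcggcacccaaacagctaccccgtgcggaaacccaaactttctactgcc
Ski: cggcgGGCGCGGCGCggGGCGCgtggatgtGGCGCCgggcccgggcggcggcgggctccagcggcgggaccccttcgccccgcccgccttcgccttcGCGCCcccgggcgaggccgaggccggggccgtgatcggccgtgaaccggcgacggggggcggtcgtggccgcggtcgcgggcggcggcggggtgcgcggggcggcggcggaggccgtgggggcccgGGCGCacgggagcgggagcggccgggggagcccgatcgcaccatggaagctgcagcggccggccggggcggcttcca
The Tgfbr1 window held 3 GGCGC matches, at -233, -232 and -104 bases from the start, the first pair overlapping. That of Ski held 7, from -245 to -27 bases, some of them overlapping, in a window of 85.3% G and C. Tgfbr2 had 1 CAGAC match at -160 bases. The Smad3 window had none of the 4 motifs. Over all 32851 promoter windows of this length, GGCGC occurred in 36.9%, CAGAC in 49.6%, TGANTCA in 7.81% and GTCTAGAC in 0.213%. A second Tgfbr1 start in the table (chr4:47385966-47386265) had 1 CAGAC match.

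Gene counts per library ranged from 9754511 to 14315313, and same-group libraries correlated at 0.970 to 0.992 across genes. Summed over 5 T cell markers, the group means lay between 1866 and 2420 CPM (the counts of a gene relative to all gene counts of its library, scaled by TMM). Markers of B cells (5 genes, group means of 0.979 to 3.71 CPM), myeloid cells (7 genes, 2.79 to 5.18 CPM, with Cd14 at 0 counts in all libraries) and red cells and platelets (5 genes, 0.0279 to 2.01 CPM) were low throughout. Foxp3 averaged 467 and 224 CPM in Treg with TGF-beta plus lactic acid and with TGF-beta. In Tcon with TGF-beta it averaged 23.4 to 64.9 CPM, against at most 1.45 CPM in Tcon without it. The other Treg markers, Il2ra and Ikzf2, separated the populations less. Il2ra averaged 3345 and 2553 CPM in Treg, against 1972 and 1893 CPM in 72 h Tcon of the same media. Ikzf2 averaged 54.0 and 98.8 CPM, against 60.6 and 101 CPM. Between Treg and Tcon, Il2ra passed the test described below with TGF-beta plus lactic acid only, and Ikzf2 in neither medium. Beyond the sexes, the sources do not say which replicates came from separate animals, so p-values measure only the spread between these libraries, which may be technical. Within a time point, libraries with the same number deviated together, so for comparisons within a time point and their interactions the value of a fit with the replicate number as a block is given wherever it changes a call. A fit without replicate 1 or 2 of 72 h Tcon with neither addition leaves 1 library in that group, which is then assumed to vary like the other groups.

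The 10 genes differed widely in how much their level depended on the culture. From the lowest to the highest group mean, Ldlrad4 spanned 42.8-fold (1.78 to 76.2 CPM) and Tgfbr1 18.3-fold (34.0 to 623 CPM). Smad7 spanned 7.95-fold, Pmepa1 7.66-fold, Tgfbr2 3.62-fold, Ski 3.51-fold, Tgfbr3 3.33-fold and Skil 3.15-fold. Smad3 (1.73-fold) and Smad2 (1.66-fold) varied least of the 10. Per kilobase of exon, which allows genes to be compared, the median over all libraries was highest for Ski (37.4 CPM per kb), Skil (30.4) and Tgfbr1 (29.5). It was 18.3 for Pmepa1, 17.5 for Tgfbr2, 15.9 for Tgfbr3 and 11.1 for Smad7, and lowest for Smad3 (9.0), Ldlrad4 (8.28) and Smad2 (8.23).

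**Figure D1:**
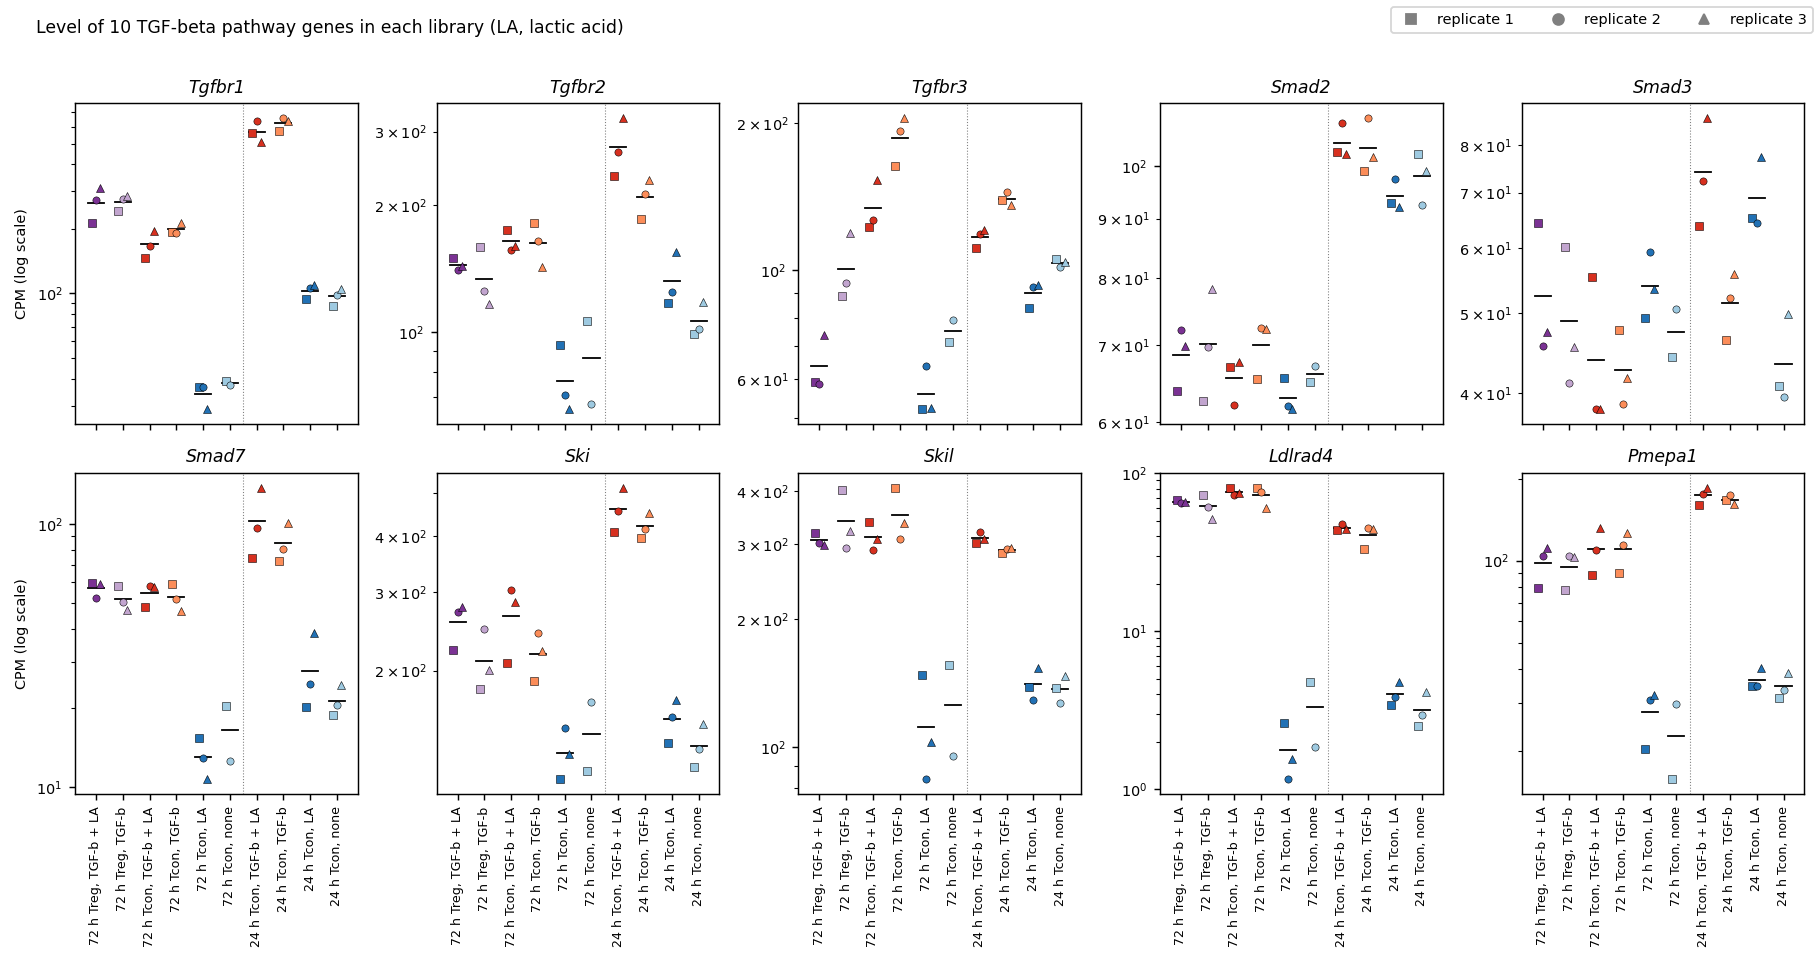
Level of each of the 10 genes in every library, in CPM on a log axis. Points are libraries, shaped by replicate number, and bars are group means over 3 libraries (2 in 72 h Tcon with neither addition); the ranges of Ldlrad4 (1.78 to 76.2 CPM for group means) and Tgfbr1 (34.0 to 623 CPM) stand out from that of Smad2 (63.0 to 105 CPM).

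The order of the 10 groups split the feedback genes at TGF-beta. For Tgfbr1, Smad7, Ski, Skil, Ldlrad4 and Pmepa1, all 6 groups with TGF-beta stood above all 4 without it, and between those sets the libraries of neighbouring groups did not overlap. How many of all tested genes show such a split was not counted. Tgfbr1 was highest in 24 h Tcon with TGF-beta and with TGF-beta plus lactic acid, whose libraries overlapped, and then in the 2 Treg groups, which overlapped with each other. Of these, Treg with TGF-beta plus lactic acid also overlapped with 72 h Tcon with TGF-beta. Ldlrad4 and Skil were instead highest in groups of 72 h. Tgfbr3 was highest in 72 h Tcon with TGF-beta (187 ± 21.2 CPM, SD, n = 3) and lowest in 72 h Tcon with lactic acid (56.1 ± 6.75 CPM), and Treg with TGF-beta plus lactic acid, at 64.0 ± 8.53 CPM, stood next to last. For Smad2, all 4 groups of 24 h stood above all 6 of 72 h. Smad3 was highest in the 2 groups of 24 h with lactic acid, whose libraries overlapped with each other but not with the third group in the order.

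Tcon from cultures with TGF-beta held more transcripts of all 3 receptors, both corepressors (Ski and Skil) and the inhibitors Smad7, Ldlrad4 and Pmepa1. This was so at 72 and at 24 h, with and without lactic acid. Neither Smad2 nor Smad3 passed the test in any of these 4 comparisons. By edgeR's quasi-likelihood test over all 29 libraries (Benjamini-Hochberg adjusted p below 0.05), 8 of the 10 genes rose and 0 fell in each. Of all tested genes, 22.5% rose at 72 h with lactic acid, 12.8% at 72 h without it, 8.06% at 24 h with lactic acid and 7.96% at 24 h without it, and 22.5%, 11.7%, 4.38% and 3.35% fell. Libraries with and without TGF-beta did not overlap for 8, 8, 9 and 8 of the 10 genes in that order, against 49.5%, 40.5%, 39.0% and 41.6% of all tested genes. The median log2 change of the 10 was 1.37, 1.40, 1.35 and 1.36, and that of all tested genes -0.02, -0.03, 0.01 and 0.00. In bulk RNA, a change in the share of cells that express a gene and a change in RNA per cell cannot be told apart. The Tcon are the RFP-negative cells of each culture, so those with TGF-beta lack the cells that had become RFP-positive. The addition of TGF-beta and this selection cannot be told apart in these comparisons.

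**Figure D2:**
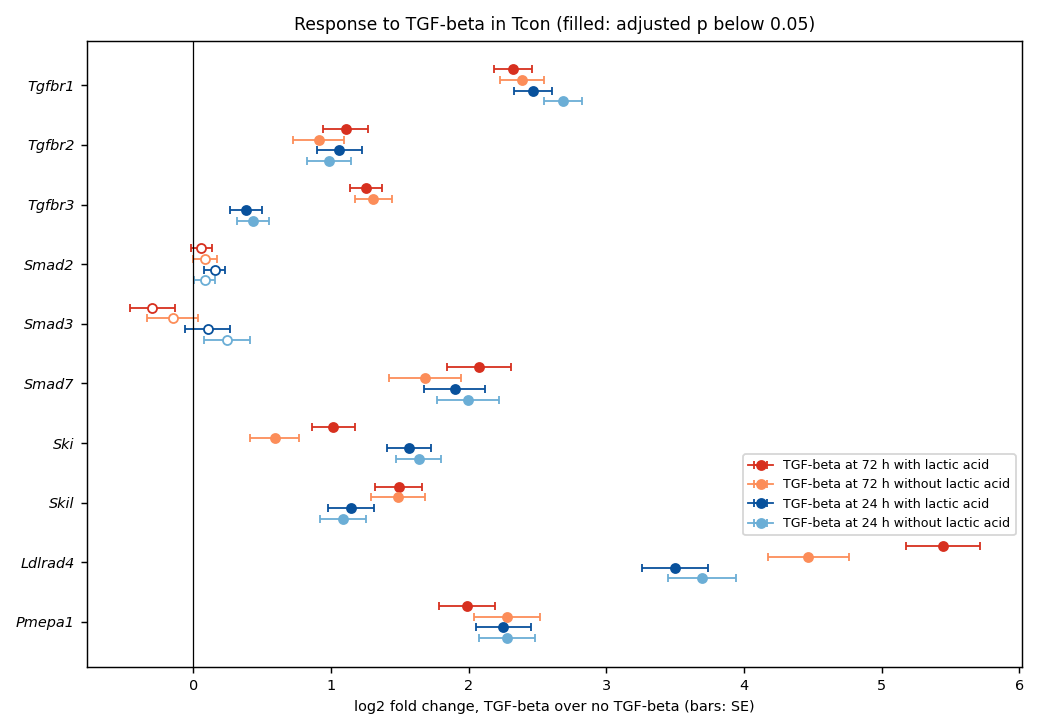
Log2 fold change with TGF-beta over without it in Tcon, for the 10 genes in 4 comparisons (72 and 24 h, with and without lactic acid), with SE bars; filled points have an adjusted p below 0.05. Ldlrad4 lies farthest to the right (3.50 to 5.44), Smad2 next to 0 (0.06 to 0.15), and the points of Tgfbr3 and Ski split by time.

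Tgfbr1, the kinase that phosphorylates SMAD2 and SMAD3, had the largest rise of the receptors. At 72 h its libraries held 146, 167 and 196 CPM with TGF-beta plus lactic acid, against 36.4, 36.7 and 28.8 CPM with lactic acid. Without lactic acid they held 193, 192 and 213 CPM with TGF-beta, against 39.0 and 37.2 CPM with neither addition. Every library with TGF-beta was thus far above those without, and the log2 changes were 2.32 ± 0.14 (SE; adjusted p = 8.52e-12) with and 2.39 ± 0.16 (adjusted p = 1.83e-10) without lactic acid. At 24 h the level was higher in both arms but the gap was alike. The values were 563, 637 and 509.5 CPM with TGF-beta plus lactic acid, against 93.8, 106 and 109.7 CPM with lactic acid, a log2 change of 2.47 ± 0.13 (adjusted p = 6.89e-12). Without lactic acid they were 575, 659 and 635 CPM with TGF-beta, against 87.5, 98.5 and 105 CPM with neither, a log2 change of 2.68 ± 0.14 (adjusted p = 1.58e-12). These are folds of 5.0, 5.22, 5.53 and 6.43.

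Tgfbr2, the ligand-binding kinase, rose less. At 72 h it was at 175, 157 and 160.5 CPM with TGF-beta plus lactic acid, against 92.8, 70.6 and 65.3 CPM with lactic acid, and the log2 change was 1.11 ± 0.16 (adjusted p = 8.89e-06). In medium without lactic acid it was at 182, 164 and 143 CPM with TGF-beta, against 106 and 67.2 CPM with neither (0.91 ± 0.19, adjusted p = 0.000788). No library with TGF-beta reached down into those without, but the 2 untreated libraries lay far apart, and without 72 h replicate 2 of neither addition this call was lost (log2 change of 0.62, adjusted p = 0.0523), as it was with the compared groups fitted alone (0.93, adjusted p = 0.0643). At 24 h Tgfbr2 was at 235, 269 and 323 CPM with TGF-beta plus lactic acid, against 117, 125 and 155 CPM with lactic acid, and at 186, 212 and 229.5 CPM with TGF-beta, against 98.6, 101 and 117 CPM with neither. The groups did not overlap, with log2 changes of 1.06 ± 0.16 (adjusted p = 5.59e-05) and 0.98 ± 0.16 (adjusted p = 0.000155).

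Tgfbr3, the coreceptor, responded more strongly at the later time. At 72 h it was at 122, 126 and 153 CPM with TGF-beta plus lactic acid, against 52.0, 63.9 and 52.3 CPM with lactic acid. Without lactic acid it was at 163, 192 and 205 CPM with TGF-beta, against 71.4 and 79.4 CPM with neither. All treated libraries stood above the untreated ones, by 1.26 ± 0.12 (adjusted p = 1.24e-08) and 1.31 ± 0.13 (adjusted p = 1.34e-07) on the log2 scale. At 24 h the values were 111, 119 and 121 CPM with TGF-beta plus lactic acid, against 83.9, 92.5 and 93.3 CPM with lactic acid, and 139, 144 and 136 CPM with TGF-beta, against 106, 101 and 104 CPM with neither. The libraries again did not overlap, with small changes of 0.38 ± 0.12 (adjusted p = 0.0317) and 0.43 ± 0.12 (adjusted p = 0.0151). The first of these calls was lost without replicate 1 (0.33, adjusted p = 0.153) or 2 (0.40, adjusted p = 0.0706) of lactic acid and without replicate 2 (0.37, adjusted p = 0.0876) or 3 (0.35, adjusted p = 0.113) of TGF-beta plus lactic acid. It was also lost under RLE scaling (0.34, adjusted p = 0.0504) and with no filter on low counts (0.33, adjusted p = 0.110). The second was lost without replicate 2 of TGF-beta (0.41, adjusted p = 0.0585) or of neither addition (0.42, adjusted p = 0.0602).

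Smad2 and Smad3, which carry the signal from TGFBR1 to the nucleus, did not pass the test in any TGF-beta comparison. Smad2 lay between 62.0 and 72.4 CPM in the 6 libraries of 72 h Tcon with TGF-beta, with or without lactic acid, against 61.5 to 67.1 CPM in the 5 without TGF-beta. Its log2 changes were 0.06 ± 0.08 with lactic acid and 0.08 ± 0.09 without it at 72 h, and 0.15 ± 0.08 and 0.08 ± 0.08 at 24 h (adjusted p = 0.562, 0.527, 0.213 and 0.547). The 24 h libraries with TGF-beta plus lactic acid (103, 109 and 102 CPM) stood just above those with lactic acid (92.8, 97.4 and 92.2 CPM) without passing. Smad3 was at 55.2, 38.2 and 38.3 CPM in 72 h Tcon with TGF-beta plus lactic acid, against 49.3, 59.2 and 53.4 CPM with lactic acid, and replicate 1 with TGF-beta stood well above the other two. The log2 change was -0.30 ± 0.17 (adjusted p = 0.149). It passed as a fall with the replicate block (-0.32, adjusted p = 0.0231) and without replicate 1 of TGF-beta plus lactic acid (-0.50, adjusted p = 0.0249). The other changes of Smad3 were -0.15 ± 0.18 at 72 h without lactic acid, 0.10 ± 0.16 at 24 h with it and 0.25 ± 0.17 at 24 h without it (adjusted p = 0.607, 0.734 and 0.380).

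Smad7, the inhibitory Smad, was at 48.4, 58.0 and 57.7 CPM in 72 h Tcon with TGF-beta plus lactic acid, against 15.3, 12.9 and 10.7 CPM with lactic acid. Without lactic acid it was at 59.2, 52.1 and 46.6 CPM with TGF-beta, against 20.4 and 12.5 CPM with neither. The groups were well separated, with log2 changes of 2.08 ± 0.23 (adjusted p = 1.87e-07) and 1.68 ± 0.26 (adjusted p = 4.44e-05). At 24 h Smad7 was at 74.7, 96.9 and 138 CPM with TGF-beta plus lactic acid, against 20.1, 24.7 and 38.4 CPM with lactic acid, and at 72.3, 80.8 and 101 CPM with TGF-beta, against 18.7, 20.6 and 24.4 CPM with neither. Although the libraries within a group spread widely, no treated library overlapped an untreated one, and the changes were 1.90 ± 0.22 (adjusted p = 1.73e-06) and 1.99 ± 0.23 (adjusted p = 1.00e-06).

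Of the corepressors, Ski was at 208, 303 and 284 CPM in 72 h Tcon with TGF-beta plus lactic acid, against 114, 149 and 129.8 CPM with lactic acid. Without lactic acid it was at 189, 243 and 221 CPM with TGF-beta, against 119 and 170.0 CPM with neither. The groups did not overlap, but replicate 1 was lowest in each, and the log2 changes were 1.02 ± 0.16 (adjusted p = 1.75e-05) and 0.59 ± 0.18 (adjusted p = 0.0178). The call without lactic acid was lost without replicate 2 of TGF-beta (0.50, adjusted p = 0.0722) and without replicate 1 of neither addition (0.38, adjusted p = 0.212). It was also lost with the compared groups fitted alone (0.60, adjusted p = 0.144). At 24 h Ski stood higher, at 408, 457 and 514 CPM with TGF-beta plus lactic acid, against 138, 157 and 172 CPM with lactic acid, and at 396, 416 and 452 CPM with TGF-beta, against 122, 133 and 152 CPM with neither. Treated libraries were all far above untreated ones (1.56 ± 0.16, adjusted p = 1.84e-07, and 1.64 ± 0.16, adjusted p = 9.97e-08). Skil was at 339, 292 and 309 CPM at 72 h with TGF-beta plus lactic acid, against 148, 84.0 and 103 CPM with lactic acid, and at 408, 309 and 337 CPM with TGF-beta, against 156 and 95.2 CPM with neither. Here replicate 1 was the highest of its group, and the changes were 1.49 ± 0.17 (adjusted p = 2.29e-07) and 1.49 ± 0.19 (adjusted p = 4.45e-06). At 24 h Skil rose to 310.4 ± 9.34 CPM with TGF-beta plus lactic acid, against 140.4 ± 12.3 CPM with lactic acid (1.14 ± 0.17, adjusted p = 3.13e-05). It rose to 291 ± 4.42 CPM with TGF-beta, against 137 ± 10.0 CPM with neither (1.09 ± 0.17, adjusted p = 6.86e-05; SD, n = 3 each).

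Both membrane inhibitors rose strongly. Ldlrad4 was at 81.0, 72.7 and 74.9 CPM in 72 h Tcon with TGF-beta plus lactic acid, against 2.63, 1.16 and 1.55 CPM with lactic acid. Without lactic acid it was at 81.1, 76.4 and 60.6 CPM with TGF-beta, against 4.79 and 1.84 CPM with neither. These were the largest changes among the 10 genes, 5.44 ± 0.27 (43.5-fold, adjusted p = 4.33e-13) and 4.47 ± 0.29 (22.1-fold, adjusted p = 1.59e-10). At 24 h Ldlrad4 was at 43.4, 47.6 and 44.5 CPM with TGF-beta plus lactic acid, against 3.43, 3.86 and 4.74 CPM with lactic acid, and at 33.1, 45.3 and 44.5 CPM with TGF-beta, against 2.52, 2.93 and 4.09 CPM with neither. No group overlapped its control (3.50 ± 0.24, adjusted p = 3.05e-10, and 3.69 ± 0.25, adjusted p = 2.20e-10). Of the exon bases of Ldlrad4, 52.1% lie opposite exons of the antisense gene Fam210a. The strand setting of the counting is not stated, so how reads of this overlap were counted is not known. In 72 h Tcon with lactic acid, Fam210a was at 70.4 ± 5.98 CPM and Ldlrad4 at 1.78 ± 0.762 CPM (SD, n = 3). The part of the overlap in the counts of Ldlrad4 was not tested. Fam210a did not rise with TGF-beta: its log2 changes were -0.28 and -0.06 at 72 h with and without lactic acid, and -0.38 and -0.26 at 24 h (adjusted p = 0.0176, 0.749, 0.00681 and 0.0688).

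Pmepa1 was at 88.9, 109.9 and 132 CPM in 72 h Tcon with TGF-beta plus lactic acid, against 20.4, 30.9 and 32.0 CPM with lactic acid. In the absence of lactic acid it was at 89.9, 114 and 127 CPM with TGF-beta, against 15.7 and 29.6 CPM with neither. Treated libraries stood clear of untreated ones, with replicate 1 the lowest in every one of these groups, and the changes were 1.99 ± 0.20 (adjusted p = 4.19e-08) and 2.28 ± 0.24 (adjusted p = 1.78e-07). At 24 h Pmepa1 was at 160.5, 176 and 186 CPM with TGF-beta plus lactic acid, against 34.7, 34.6 and 40.3 CPM with lactic acid, and at 167, 174 and 161 CPM with TGF-beta, against 31.3, 33.6 and 38.8 CPM with neither. The gap was about as wide as at 72 h (2.25 ± 0.20, adjusted p = 2.38e-08, and 2.28 ± 0.20, adjusted p = 1.73e-08).

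Markers of CD8+ T and NK cells moved with TGF-beta too. Summed over 6 genes (Cd8a, Cd8b1, Klrb1c, Klrd1, Ncr1 and Xcl1), they were at 88.7 ± 22.0 CPM at 72 h with TGF-beta plus lactic acid, against 10.3 ± 3.38 CPM with lactic acid, and at 79.6 ± 14.7 CPM with TGF-beta, against 12.1 ± 4.93 CPM with neither. At 24 h the sums were 179 ± 19.3 CPM, against 78.4 ± 4.08 CPM, and 165 ± 22.0 CPM, against 80.0 ± 4.75 CPM, in the same order. Most of this was Xcl1, a chemokine gene, at 56.6 CPM, against 0.522 CPM, and 59.4 CPM, against 2.41 CPM, at 72 h. Of the 4 of these 6 genes that were tested, Cd8a, Klrd1 and Xcl1 rose at 72 h with and without lactic acid, and at 24 h Xcl1 rose and Cd8b1 fell. The NK cell receptor genes Ncr1 (at most 0.106 CPM as a group mean) and Klrb1c (at most 0.203 CPM) were near 0 in all groups. The difference between the times in these changes passed for Xcl1 (5.30 with and 3.38 without lactic acid), Cd8a (6.57 and 5.96) and, with lactic acid, Klrd1 (3.18). The part of these cells in the TGF-beta response of the 10 genes was not tested.

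For 3 of the 10 genes the size of the response differed between the times in at least 1 setting. The test of the difference between the log2 changes at 72 and 24 h called 2 of the 10 genes with lactic acid, where 14.4% of all genes were called, and 2 without it, where 5.73% were. With lactic acid, 2 of 10 is thus near the share of all genes. Tgfbr3 rose more at 72 h in both settings: by 0.88 ± 0.16 more with lactic acid (adjusted p = 0.000770) and 0.88 ± 0.17 more without it (adjusted p = 0.00318). Ldlrad4 rose more at 72 h with lactic acid (1.95 ± 0.36, adjusted p = 0.000674), while without lactic acid its difference of 0.77 ± 0.37 had an adjusted p of 0.273 and passed with the block (0.86, adjusted p = 0.0495) and without replicate 1 of 72 h with neither addition (1.61, adjusted p = 0.0233, with 1 library left in that group). Ski rose less at 72 h without lactic acid (-1.04 ± 0.23, adjusted p = 0.00784), a call lost without replicate 2 of 72 h with neither addition (-0.72, adjusted p = 0.0777). With lactic acid the difference for Ski was -0.55 ± 0.22 (adjusted p = 0.104) and passed with the block (-0.55, adjusted p = 2.99e-05). With the block Skil also passed, with lactic acid (0.37, adjusted p = 0.0311) and without (0.45, adjusted p = 0.0269), so that 4 of the 10 genes were called in each setting. Of all 14375 tested genes, the block called 4831 with lactic acid and 2794 without it. Skil with lactic acid passed, too, without replicate 1 of 72 h with lactic acid (0.65, adjusted p = 0.0499). The differences for Tgfbr1, Tgfbr2, Smad7 and Pmepa1 lay between -0.31 and 0.18 and did not pass, nor did those for Smad2 and Smad3. The 72 h and 24 h libraries may also differ in preparation or sequencing, which cannot be told apart from time. The share of RFP-positive cells left out of the Tcon may differ between the times, too.

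The balance between receptor transcripts shifted with these responses. Per kilobase of exon, the ratio of Tgfbr1 to Tgfbr2 in Tcon was 1.30 ± 0.241 at 72 h with TGF-beta plus lactic acid, against 0.565 ± 0.0803 with lactic acid, and 1.55 ± 0.280 with TGF-beta, against 0.577 ± 0.164 with neither (SD). At 24 h it was 2.65 ± 0.584, against 0.984 ± 0.0904, and 3.74 ± 0.241, against 1.15 ± 0.0578. In Treg it was 2.31 ± 0.481 with TGF-beta plus lactic acid and 2.58 ± 0.595 with TGF-beta. Transcripts of the kinase that acts on the Smads thus outnumbered those of the ligand-binding kinase in all 6 groups with TGF-beta, and fell short of them in both 72 h groups without it. The ratio of Tgfbr3 to Tgfbr1 was lowest in 24 h Tcon with TGF-beta plus lactic acid (0.207 ± 0.0267) and with TGF-beta (0.225 ± 0.0149) and in Treg with TGF-beta plus lactic acid (0.244 ± 0.0325). It was 0.375 ± 0.0399 in Treg with TGF-beta, 0.790 ± 0.0408 and 0.935 ± 0.0806 in 72 h Tcon with TGF-beta plus lactic acid and with TGF-beta, and highest in 72 h Tcon with lactic acid (1.66 ± 0.206) and with neither (1.98 ± 0.214). The ratio of Smad7 to Smad3 was 1.51 ± 0.141 at 72 h with TGF-beta, against 0.434 ± 0.184 with neither, and 2.01 ± 0.177 at 24 h with TGF-beta, against 0.600 ± 0.0368 with neither. These ratios are descriptions, with no test.

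**Figure D3:**
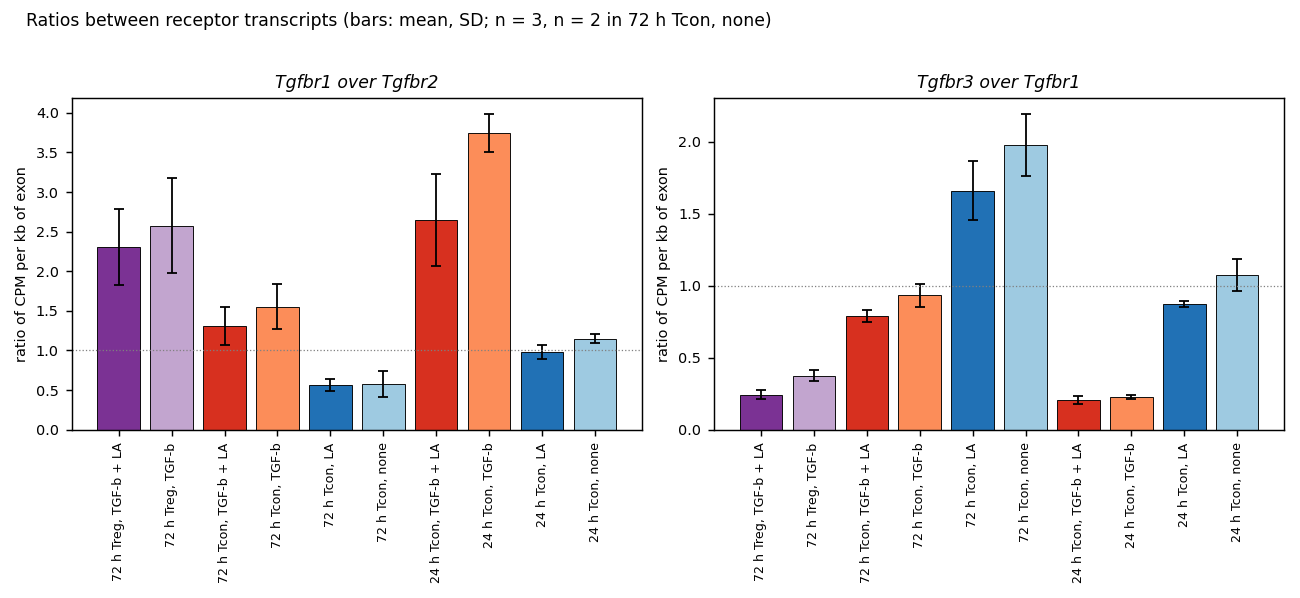
Ratios of CPM per kb of exon between receptor transcripts in the 10 groups, as mean and SD over 3 libraries (2 in 72 h Tcon with neither addition); the dotted line marks equal levels. Tgfbr1 over Tgfbr2 is above 1 in all groups with TGF-beta (1.30 to 3.74), and Tgfbr3 over Tgfbr1 is below 1 in all of them (0.207 to 0.935).

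With lactic acid few of the 10 genes passed the test in the fit without the replicate block, and those calls were falls of Tgfbr3. In the fit with the block, rises of Smad3, Tgfbr2 and Ski passed too, as given below. In 72 h Treg with TGF-beta, 1 of the 10 genes was called, as were 3.51% of all tested genes, and in 72 h Tcon with TGF-beta 1 of 10, against 2.16%. In Tcon without TGF-beta at 72 h and in both 24 h comparisons 0 of 10 were called by edgeR, against 0.0696% of genes at 72 h, 0.230% at 24 h with TGF-beta and 0.0835% at 24 h without it. At an unadjusted p under 0.05 the counts in those 3 comparisons were 2, 3 and 1, and DESeq2 called 0, 0 and 1. With the replicate block the numbers called became 2 in Treg, 2 in 72 h Tcon with TGF-beta, 1 in 72 h Tcon without TGF-beta, 3 at 24 h with TGF-beta and 2 at 24 h without it. Of all 14375 tested genes, the block called 2833, 2211, 492, 963 and 614 in that order. In Treg and in 72 h Tcon with TGF-beta, 2 of 10 is near the share of all genes called. Libraries with and without lactic acid did not overlap for 1 of the 10 genes in Treg (17.9% of all genes), 1 in 72 h Tcon with TGF-beta (16.8%), 2 at 72 h without TGF-beta (17.1%), 4 at 24 h with TGF-beta (19.3%) and 2 at 24 h without it (21.9%). Of the 4 tested CD8+ T and NK cell markers, Xcl1 fell with lactic acid in Treg (-0.83, adjusted p = 0.0154), where the list summed to 65.6 ± 2.15 CPM, against 89.1 ± 6.56 CPM, and Klrd1 rose in 72 h Tcon with TGF-beta (1.30, adjusted p = 0.0271). In Treg the T cell gene Trac rose (0.39, adjusted p = 0.0231) and, of the Treg markers, Foxp3 rose (1.06, adjusted p = 0.0240) and Ikzf2 fell (-0.87, adjusted p = 0.0178). The part of these shifts in the changes of Tgfbr3 was not tested.

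Tgfbr3 was at 59.3, 58.7 and 73.8 CPM in Treg with TGF-beta plus lactic acid, against 88.6, 94.0 and 119 CPM in Treg with TGF-beta. No library of one group reached the other, and the log2 change was -0.65 ± 0.12 (adjusted p = 0.00210); with those 6 libraries fitted alone the adjusted p was 0.148. In Tcon at 72 h it was at 122, 126 and 153 CPM with TGF-beta plus lactic acid, against 163, 192 and 205 CPM with TGF-beta (-0.48 ± 0.11, adjusted p = 0.0253). This call, without overlap too, was lost without replicate 1 (-0.42, adjusted p = 0.0893) or 2 (-0.44, adjusted p = 0.154) of TGF-beta plus lactic acid and without replicate 2 (-0.46, adjusted p = 0.0719) or 3 (-0.41, adjusted p = 0.113) of TGF-beta. With those 6 libraries fitted alone the adjusted p was 0.189. The same direction appeared in the other Tcon comparisons, which did not pass: 52.0, 63.9 and 52.3 CPM with lactic acid, against 71.4 and 79.4 CPM with neither at 72 h (-0.43 ± 0.13, adjusted p = 0.282; with the block -0.50, adjusted p = 0.00546). At 24 h the changes were -0.26 ± 0.11 with TGF-beta (adjusted p = 0.563; with the block -0.26, adjusted p = 0.0468) and -0.21 ± 0.12 without it (adjusted p = 0.772). In all 5 comparisons the libraries with and without lactic acid did not overlap for Tgfbr3. The tests of whether the change of Tgfbr3 with lactic acid differed between Treg and Tcon (-0.18 ± 0.16, adjusted p = 1.000) and between Tcon with and without TGF-beta at 72 h (-0.05 ± 0.17, adjusted p = 0.970) did not pass.

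At 24 h Smad3 was at 63.7, 72.3 and 86.2 CPM with TGF-beta plus lactic acid, against 46.4, 52.2 and 55.8 CPM with TGF-beta, and at 65.2, 64.3 and 77.3 CPM with lactic acid, against 40.8, 39.6 and 49.9 CPM with neither. In both, all libraries with lactic acid stood above those without, with log2 changes of 0.53 ± 0.16 (adjusted p = 0.267) and 0.67 ± 0.17 (adjusted p = 0.157), neither of which passed. Both passed with the replicate block (0.52, adjusted p = 0.00764, and 0.67, adjusted p = 0.00149). The comparison without TGF-beta also passed with DESeq2 (0.66, adjusted p = 0.0319), with the compared groups alone (0.67, adjusted p = 0.0261) and with no filter on low counts (0.67, adjusted p = 0.0294). At 72 h the differences of Smad3 were 0.10 ± 0.16 in Treg, 0.04 ± 0.17 in Tcon with TGF-beta and 0.19 ± 0.19 in Tcon without it. Tgfbr2 was at 235, 269 and 323 CPM at 24 h with TGF-beta plus lactic acid, against 186, 212 and 229.5 CPM with TGF-beta (0.40 ± 0.16, adjusted p = 0.480), and it passed with the block there (0.39, adjusted p = 0.00519) and in the comparison without TGF-beta (0.32, adjusted p = 0.0339; adjusted p = 0.721 without the block). Ski, too, passed with the block, in Treg (0.30, adjusted p = 0.00113) and in 72 h Tcon with TGF-beta (0.27, adjusted p = 0.00288), against adjusted p = 0.353 and 0.445 without it. Ldlrad4 at 72 h without TGF-beta changed by -0.91 ± 0.34 (adjusted p = 0.428) and passed as a fall without replicate 2 of neither addition (-1.46, adjusted p = 0.0301, with 1 library left in that group). The log2 differences of Tgfbr1, Smad2, Smad7, Skil and Pmepa1 in the 5 comparisons lay between -0.34 and 0.39 and none passed in any fit.

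Whether lactic acid changed the response of the 10 genes to TGF-beta was tested as an interaction. By edgeR 0 of 10 genes passed at 72 h, where 0.104% of all genes were called, and 0 of 10 at 24 h, where no gene of 14375 was. At an unadjusted p under 0.05 there were 1 and 0 members, and DESeq2 called 0 of the 10 at both times. The response of Ski at 72 h passed with the block alone (0.43, adjusted p = 0.0104, against 0.43 ± 0.24 with adjusted p = 0.710 without it). For Ldlrad4 the difference at 72 h was 0.97 ± 0.39 (adjusted p = 0.520). For the other 8 genes it lay between -0.29 and 0.40 at 72 h. The lactic acid effect in Treg against that in Tcon gave 0 of 10 calls, 0 at an unadjusted p under 0.05 and 0 by DESeq2, and edgeR called no gene in all.

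Treg and Tcon from the same media differed in receptor transcripts. With TGF-beta plus lactic acid 2 of the 10 genes were called, against 2.55% of all genes, and with TGF-beta 1 of 10, against 0.216%. Tgfbr3 was lower in Treg, at 59.3, 58.7 and 73.8 CPM, against 122, 126 and 153 CPM in Tcon, with TGF-beta plus lactic acid. With TGF-beta it was at 88.6, 94.0 and 119 CPM in Treg, against 163, 192 and 205 CPM in Tcon. The 2 populations did not overlap in either medium, and the log2 changes were -1.07 ± 0.12 (adjusted p = 1.88e-05) and -0.89 ± 0.12 (adjusted p = 0.000536); both calls held without each of the 6 libraries in turn, and with the 6 libraries of the second comparison fitted alone its adjusted p was 0.502. Tgfbr1 was higher in Treg with TGF-beta plus lactic acid, at 212, 273 and 310.1 CPM, against 146, 167 and 196 CPM in Tcon (0.64 ± 0.13, adjusted p = 0.00667). The call was lost without replicate 3 of Treg (0.51, adjusted p = 0.0622) or replicate 1 of Tcon (0.55, adjusted p = 0.0543). With these 6 libraries fitted alone its adjusted p was 0.118. With TGF-beta Tgfbr1 was at 243, 275 and 284 CPM in Treg, against 193, 192 and 213 CPM in Tcon, again without overlap (0.42 ± 0.13, adjusted p = 0.317; with the block 0.42, adjusted p = 0.0183).

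The other 8 genes did not pass between Treg and Tcon in either medium. Tgfbr2 was at 149.9, 140.1 and 143 CPM in Treg, against 175, 157 and 160.5 CPM in Tcon, with TGF-beta plus lactic acid (-0.18 ± 0.16, adjusted p = 0.711), and changed by -0.29 ± 0.16 with TGF-beta. Ldlrad4 was at 67.2, 65.0 and 65.6 CPM in Treg, against 81.0, 72.7 and 74.9 CPM in Tcon, in the first medium (-0.21 ± 0.20, adjusted p = 0.744). Both genes thus lay slightly lower in every Treg library there without passing. Smad3 differed by 0.26 ± 0.17 and 0.20 ± 0.17, Pmepa1 by -0.17 ± 0.19 and -0.21 ± 0.19, and Smad2, Smad7, Ski and Skil by -0.05 to 0.07. Libraries of Treg and Tcon did not overlap for 4 of the 10 genes with TGF-beta plus lactic acid (18.5% of all genes) and for 2 with TGF-beta (8.39%). The Tcon libraries with TGF-beta enter these comparisons and those of TGF-beta alike.

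**Figure D4:**
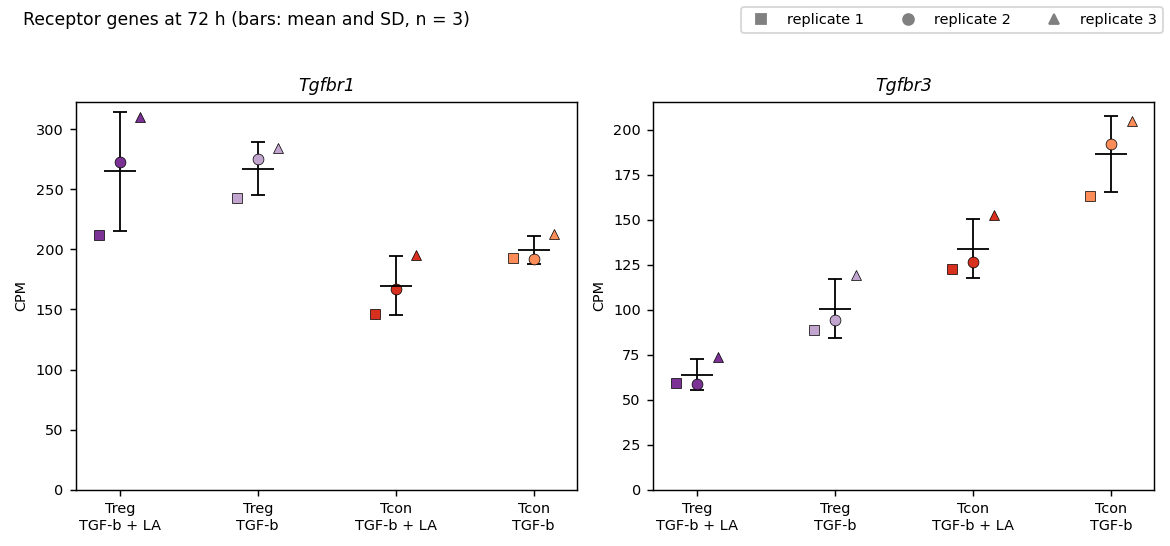
CPM of Tgfbr1 and Tgfbr3 in the 72 h libraries with TGF-beta, Treg left of Tcon, with and without lactic acid (LA); points are libraries by replicate number, bars mean and SD (n = 3). Tgfbr1 is higher in Treg (265 and 267 CPM on average) than in Tcon (169.8 and 199 CPM) and Tgfbr3 lower (64.0 and 101 CPM, against 134 and 187 CPM).

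Between 72 and 24 h most of the changes within a medium were falls. With TGF-beta plus lactic acid 1 of the 10 genes rose and 7 fell (24.4% and 23.0% of all genes), with TGF-beta 2 rose and 5 fell (28.0% and 24.8%), with lactic acid 0 rose and 6 fell (26.5% and 20.1%) and with neither 0 rose and 4 fell (27.1% and 18.4%). Libraries of 72 and 24 h did not overlap for 9, 9, 8 and 4 of the 10 genes in that order, against 57.5%, 60.8%, 57.4% and 63.6% of all genes. Tgfbr1 fell in all 4 media, by 1.75, 1.65, 1.60 and 1.35 on the log2 scale, and Smad2 by 0.68, 0.56, 0.58 and 0.57 (adjusted p of at most 1.38e-05). Tgfbr2 fell with TGF-beta plus lactic acid (-0.75 ± 0.16, adjusted p = 0.000547) and with lactic acid (-0.80 ± 0.16, adjusted p = 0.000345). Ski passed as a fall with TGF-beta plus lactic acid and with TGF-beta (-0.80 ± 0.16, adjusted p = 0.000225, and -0.95 ± 0.16, adjusted p = 2.7e-05).

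Ldlrad4 rose between 24 and 72 h with TGF-beta plus lactic acid (0.75 ± 0.20, adjusted p = 0.00344) and with TGF-beta (0.83 ± 0.20, adjusted p = 0.00147) and fell with lactic acid (-1.19 ± 0.30, adjusted p = 0.00215). Tgfbr3 likewise rose with TGF-beta (0.42 ± 0.11, adjusted p = 0.00414) and fell with lactic acid (-0.68 ± 0.12, adjusted p = 4.83e-05) and with neither (-0.46 ± 0.13, adjusted p = 0.00640), the last call being lost without 72 h replicate 1 (-0.38, adjusted p = 0.0905). Smad7 fell with TGF-beta plus lactic acid, TGF-beta and lactic acid (-0.92, -0.68 and -1.10), and the second call was lost without 24 h replicate 3 of TGF-beta (-0.54, adjusted p = 0.0634). Pmepa1 fell with TGF-beta plus lactic acid (-0.66 ± 0.19, adjusted p = 0.00668), with TGF-beta (-0.60 ± 0.19, lost without 72 h replicate 1 of TGF-beta, -0.47, adjusted p = 0.0658) and with neither (-0.60 ± 0.23). The last of these was lost without replicate 2 (-0.62, adjusted p = 0.0551) or 3 (-0.51, adjusted p = 0.107) of 24 h or replicate 1 of 72 h (-0.22, adjusted p = 0.551). It was lost with the compared groups fitted alone, too (-0.62, adjusted p = 0.104). Smad3 fell with TGF-beta plus lactic acid (-0.75 ± 0.17, adjusted p = 0.000642). Skil did not pass in any of the 4 media with all libraries and the filter on low counts. With lactic acid it passed as a fall without replicate 1 of 72 h (-0.60, adjusted p = 0.00573) and with no filter (-0.37, adjusted p = 0.0497), as did Pmepa1 (-0.42, adjusted p = 0.0393) and Smad3 (-0.39, adjusted p = 0.0479) with no filter. Tgfbr2 passed as a fall with TGF-beta without replicate 1 of 72 h (-0.45, adjusted p = 0.0469) or of 24 h (-0.44, adjusted p = 0.0460) and with the compared groups alone (-0.34, adjusted p = 0.0490), and with neither addition without replicate 1 of 72 h (-0.65, adjusted p = 0.0268), which leaves 1 library there.

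Markers of other cells also moved between the times. Of the 4 tested genes of the CD8+ T and NK cell list, Xcl1 fell in all 4 media (-1.60 with TGF-beta plus lactic acid, -1.42 with TGF-beta, -6.89 with lactic acid and -4.80 with neither). Cd8a (5.27 and 4.55) and Klrd1 (4.05 and 3.46) rose in both media with TGF-beta. The B cell gene Cd79b, the 1 tested of 5, rose with TGF-beta (1.24), lactic acid (1.69) and neither (1.75), where the summed B cell markers of Tcon were at 2.29 to 3.71 CPM at 72 h, against 0.979 to 1.52 CPM at 24 h. Of the red cell and platelet genes, 1 of 2 tested passed as a rise with lactic acid (Pf4) and 1 with neither addition (Ppbp), in a list whose group means summed to at most 2.01 CPM. The part of these cells in the changes of the 10 genes with time was not tested.

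Libraries of number 1 stood apart at 72 h in several of the 10 genes. Tgfbr2, Skil and Ldlrad4 were highest in replicate 1 in all 6 groups of 72 h, and Ski and Pmepa1 lowest in all 6. In 72 h Tcon with neither addition, which has 2 libraries, replicate 1 is always either highest or lowest. How often other genes show such a pattern was not counted. On the log2 scale replicate 1 differed from the mean of the other libraries of its group by a median of 0.36 (range 0.09 to 0.71) for Skil, 0.32 (range 0.08 to 0.66) for Tgfbr2 and 0.30 (range 0.04 to 1.38) for Ldlrad4. For Pmepa1 the median was -0.44 (range -0.91 to -0.41) and for Ski -0.30 (range -0.52 to -0.29). Smad7 was highest in replicate 1 in 5 of these groups, Tgfbr3 lowest in 5 and Smad3 highest in 4. At 24 h the pattern was not the same: Tgfbr2, Smad7, Ski and Ldlrad4 were lowest in replicate 1 in all 4 groups, with medians of -0.25 (range -0.33 to -0.15), -0.49 (range -0.65 to -0.26), -0.24 (range -0.25 to -0.13) and -0.38 (range -0.48 to -0.09). Replicate 1 is also the number of the male mice, so sex and the other properties of these libraries cannot be told apart. With the 6 libraries of number 1 at 72 h left out together (an alternative chosen after seeing the data), 8 of the 10 genes still rose with TGF-beta at 72 h in each setting. Smad3 then fell with lactic acid present (-0.56, adjusted p = 0.00172). The difference between the times in the change with TGF-beta was then called for 5 of the 10 genes with lactic acid. Over all genes, 3929 were called in that comparison. Those gained among the 10 were Ski (-0.49, adjusted p = 0.0285), Skil (0.54, adjusted p = 0.00241) and Smad3 (-0.67, adjusted p = 0.00665). Without lactic acid the differences of Ldlrad4 and Skil were 1.51 and 0.68. In these fits 72 h Tcon with neither addition is 1 library, on which the last pair and the values with neither addition that follow rest. Between 72 and 24 h, Skil then fell with lactic acid (-0.59, adjusted p = 1.25e-05) and with neither (-0.52, adjusted p = 0.000880), Tgfbr2 with TGF-beta (-0.44, adjusted p = 0.00515) and with neither (-0.65, adjusted p = 0.00414), and Smad3 with TGF-beta (-0.35, adjusted p = 0.0213) and with lactic acid (-0.29, adjusted p = 0.0493). Tgfbr3 rose with TGF-beta plus lactic acid (0.26, adjusted p = 0.0459), and the call of Pmepa1 with neither was lost (-0.21, adjusted p = 0.209).

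**Figure D5:**
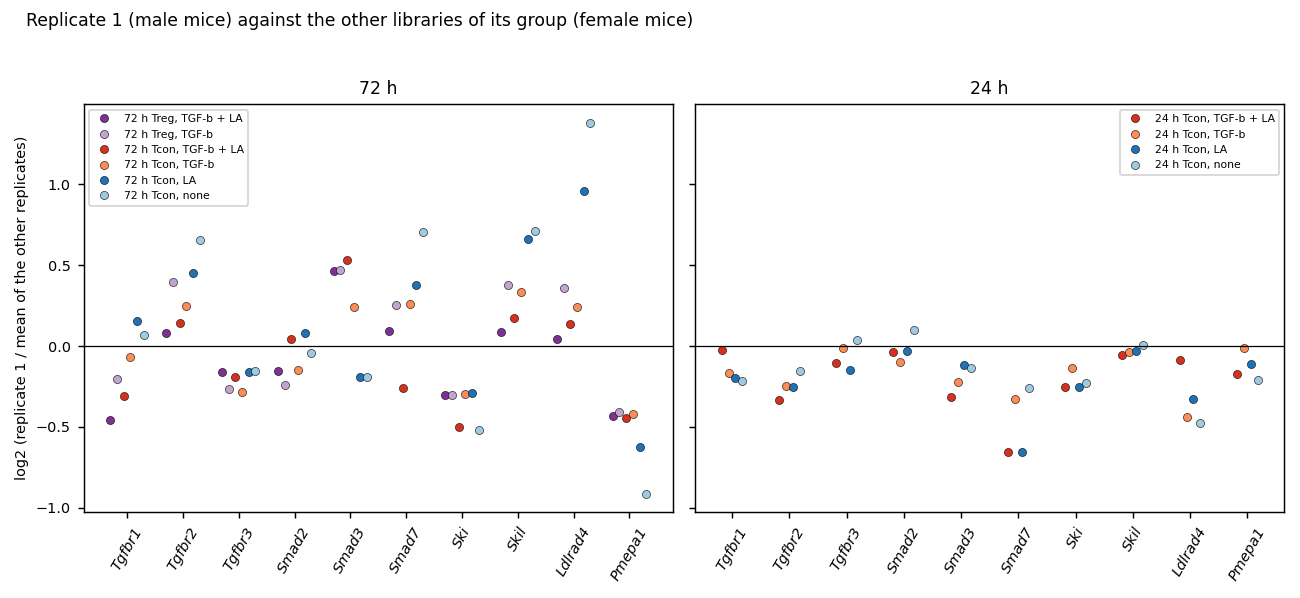
Log2 of the level in replicate 1 (male mice) over the mean of the other replicates of its group (female mice), at 72 h (left, 6 groups) and 24 h (right, 4 groups), 1 point per group. At 72 h all points of Tgfbr2, Skil and Ldlrad4 lie above 0 and all of Ski and Pmepa1 below it; at 24 h all points of Tgfbr2, Smad7, Ski and Ldlrad4 lie below 0.

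Among 99 other genes of the TGF-beta pathway, in 10 lists, 84 were tested. With TGF-beta 33 rose and 10 fell at 72 h with lactic acid, 34 rose and 4 fell at 72 h without it, 18 rose and 5 fell at 24 h with lactic acid and 19 rose and 1 fell at 24 h without it. With the replicate block 58, 54, 39 and 40 of the 84 were called in that order, against 8621, 6526, 4655 and 4562 of all 14375 tested genes. The median log2 changes of the 84 were 0.28, 0.27, 0.15 and 0.19, well below those of the 10 genes and above those of all tested genes, as given above. The shares of all tested genes that rose and fell, as above, were 22.5% and 22.5%, 12.8% and 11.7%, 8.06% and 4.38%, and 7.96% and 3.35%, and the counts of each list below are in the same order and stand beside those shares. Of the other receptors of the superfamily, 5, 6, 4 and 5 of 9 tested rose, and 0 fell. The activin receptor gene Acvr2a changed by 2.35 ± 0.21 and 1.74 ± 0.24 at 72 h with and without lactic acid, and by 2.21 ± 0.20 and 2.07 ± 0.20 at 24 h, all called. The activin receptor gene Acvr1b changed by 1.72 ± 0.11, 1.59 ± 0.13, 0.67 ± 0.11 and 0.72 ± 0.11, also all called, and the BMP receptor gene Bmpr2 rose at 24 h (2.18 ± 0.22 and 2.10 ± 0.22). Acvrl1 rose to 106 ± 42.5 CPM at 72 h with TGF-beta plus lactic acid, against 3.18 ± 0.942 CPM with lactic acid, and to 93.6 ± 5.13 CPM with TGF-beta, against 5.41 ± 2.88 CPM with neither. Acvr1c rose at 72 h (3.85 ± 0.59 and 3.73 ± 0.66), and Eng with and Acvr1 without lactic acid at 24 h (1.13 ± 0.30 and 1.18 ± 0.31). The last 2 calls were lost without single libraries (replicates 1 and 3 of lactic acid for Eng, and replicate 1 of TGF-beta and of neither addition for Acvr1).

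Ubiquitin ligases and deubiquitinases that act on the receptors and Smads rose in 6, 5, 3 and 2 of 11 tested genes, and 0 fell. Smurf1, a ligase that SMAD7 brings to the receptor, changed by 1.44 ± 0.15 and 1.34 ± 0.17 at 72 h with and without lactic acid and by 1.22 ± 0.14 and 1.34 ± 0.15 at 24 h, and Smurf2 by 0.77 ± 0.08, 0.75 ± 0.10, 0.64 ± 0.08 and 0.60 ± 0.08, all called. Nedd4l rose at 72 h (1.49 ± 0.13 and 1.35 ± 0.15), where the change at 24 h was 0.04 ± 0.13 and 0.08 ± 0.13 and did not pass. The difference between the times passed, at 1.45 ± 0.18 (adjusted p = 1.02e-05) with and 1.27 ± 0.20 (adjusted p = 0.000305) without lactic acid. Usp11 rose at 72 h (1.64 ± 0.31 and 1.96 ± 0.36) and at 24 h with lactic acid (1.00 ± 0.32, lost in 5 of 6 fits that each left out 1 library). Of the other Smads, 2 of 4 tested rose at 72 h with lactic acid (Smad6, at 0.571 ± 0.425 CPM, against 0.0816 ± 0.00917 CPM, and Smad5, 0.31 ± 0.11) and 3 without it (Smad6, at 0.582 ± 0.474 CPM, against 0 CPM in both libraries, Smad4, 0.47 ± 0.12, and Smad1, 0.66 ± 0.18). By edgeR 0 of 4 passed at 24 h with or without lactic acid, where 1 and 1 had an unadjusted p below 0.05 and DESeq2 called 0 and 0.

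Nuclear partners rose in 5, 4, 2 and 2 of 7 tested genes. Foxo1 changed by 1.39 ± 0.11 and 1.19 ± 0.12 at 72 h and by 0.92 ± 0.10 and 0.95 ± 0.10 at 24 h, all called. Runx1 rose at 24 h (1.33 ± 0.14 and 1.67 ± 0.14), and at 72 h with and without lactic acid Runx3 (1.14 and 0.89), Crebbp (0.73 and 0.52) and Sp1 (0.41 and 0.36). Other inhibitors and corepressors counted 2 higher and 1 lower of 7 at 72 h with lactic acid (Sin3a 0.56, Ncor1 0.51 and Tgif2 -0.37) and 3 higher without it (Sin3a 0.46, Ncor1 0.31 and Bambi 1.29). At 24 h edgeR called 0 with and 0 without lactic acid, with 0 and 1 at an unadjusted p below 0.05 and 0 and 0 called by DESeq2. Adaptors counted 1 higher and 3 lower of 8, against 22.5% and 22.5% of all genes (Trim33 0.49; Strap -0.53, Tgfbrap1 -0.25 and Ppm1a -0.26) and 1 higher and 1 lower, against 12.8% and 11.7% (Trim33 0.44 and Tgfbrap1 -0.23). At 24 h edgeR called 0 of them with and 0 without lactic acid, with 1 and 2 at an unadjusted p below 0.05 and 0 and 0 called by DESeq2. Smad-independent genes counted 3 higher and 1 lower of 8 (Traf6 1.36, Tab2 0.40 and Rock1 0.27; Ppp2r2a -0.27), 4 higher (Traf6 1.34, Tab2 0.42, Rhoa 0.30 and Map3k7 0.34), 1 higher and 1 lower (Traf6 1.17 and Ppp2r2a -0.29) and 1 higher (Traf6 1.05).

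Ligand genes counted 1 higher and 2 lower, 1 and 1, 1 and 1, and 1 and 0 of 6 tested. Tgfb1 rose at 24 h (0.48 ± 0.09 and 0.69 ± 0.09) and at 72 h without lactic acid (0.39 ± 0.10), and Tgfb3 at 72 h with it (1.62 ± 0.37). Inhba, which encodes a subunit of activin, fell at 72 h (-4.25 ± 0.45 and -2.09 ± 0.42), and Bmp7 fell with lactic acid at 72 h (-0.76) and 24 h (-0.81). Genes of ligand storage and activation counted 4 higher, 2 higher and 1 lower, 2 higher and 2 higher of 9. Furin, which cleaves the TGF-beta precursor, changed by 0.36 ± 0.13 and 0.60 ± 0.14 at 72 h and by 0.91 ± 0.13 and 1.24 ± 0.13 at 24 h. Lrrc32 (GARP), which displays latent TGF-beta on the surface of Treg, rose at 72 h to 104 ± 27.3 CPM, against 7.22 ± 8.72 CPM, and to 66.8 ± 36.9 CPM, against 7.15 ± 7.81 CPM. Thbs1 rose at 24 h (4.17 ± 0.69 and 2.7 ± 0.52), and at 72 h Itgav (0.58) and Ltbp1 (1.70) rose with lactic acid while Ltbp3 fell without it (-2.04). Known direct targets counted 4 higher and 3 lower, 5 and 1, 5 and 3, and 6 and 1 of 15 tested. Itgae (the integrin chain CD103) changed by 6.16 ± 0.34, 5.77 ± 0.38, 4.26 ± 0.42 and 4.73 ± 0.41, Ahr by 2.63 ± 0.16, 2.61 ± 0.18, 1.70 ± 0.16 and 1.92 ± 0.15, and Klf10 by 1.16 ± 0.23, 1.25 ± 0.26, 1.61 ± 0.23 and 1.54 ± 0.23. Foxp3, which the sort was based on, was called in all 4.

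Several of these calls rested on single libraries. At 72 h without lactic acid, those of Tgfb1 and Ltbp3 were lost without replicate 1 of neither addition, those of Furin, Smad4, Smad1, Sp1, Klf10 and Tab2 without its replicate 2, and that of Smad6 without replicate 2 of TGF-beta. The calls of Crebbp, Ncor1, Bambi, Rhoa, Map3k7 and Tgfbrap1 there were each lost without 2 or more libraries taken singly. At 72 h with lactic acid, that of Smad6 was lost without replicate 1 of TGF-beta plus lactic acid and that of Tgfbrap1 without replicate 3 of lactic acid, and those of Bmp7, Furin, Itgav, Ltbp1, Smad5, Ppm1a, Tgif2, Ppp2r2a and Rock1 without 2 or more. At 24 h with lactic acid, those of Bmp7 and Ppp2r2a were also lost without 2 or more. None of the called pathway genes changed sign in these fits.

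With lactic acid, 1 of the 84 rose and 5 fell in Treg, 0 rose and 3 fell in 72 h Tcon with TGF-beta, 0 rose and 1 fell at 24 h with TGF-beta (3.51%, 2.16% and 0.230% of all genes were called), and edgeR called 0 in Tcon without TGF-beta at either time. Without TGF-beta, 6 at 72 h and 7 at 24 h had an unadjusted p below 0.05, and DESeq2 called 0 and 1. With the replicate block 26 were called in Treg, 26 in 72 h Tcon with TGF-beta, 3 at 24 h with TGF-beta and 2 at each time without it. Of all 14375 tested genes, the block called 2833, 2211 and 963 in the first 3 of these comparisons. Without TGF-beta it called 492 at 72 h and 614 at 24 h. In Treg Thbs1 fell to 2.79 ± 1.22 CPM with TGF-beta plus lactic acid, against 13.0 ± 5.57 CPM with TGF-beta, and Ahr fell by 0.87 on the log2 scale. Itgb8, which activates latent TGF-beta, Inhba and Bhlhe40 fell and Foxp3 rose there (-1.43 ± 0.32, -1.74 ± 0.47, -0.64 ± 0.18 and 1.06 ± 0.26), all 4 lost without 3 or more libraries taken singly. In 72 h Tcon Thbs1 was at 1.33 ± 0.171 CPM, against 8.18 ± 2.49 CPM, a call held in every such fit, while Ppm1a (-0.33) and Acvr1 (-0.97), and Ahr at 24 h (-0.80), lost theirs in 3 or more. Between Treg and Tcon 3 rose and 2 fell with TGF-beta plus lactic acid and 2 rose and 0 fell with TGF-beta (2.55% and 0.216% of all genes were called), and with the replicate block 19 and 6 were called. Of all 14375 tested genes, the block called 1832 and 422 in these media. The pathway genes that rose in both media include Foxp3, a call that the sort on its reporter fixed in advance. Besides Foxp3, Itgb8 was higher in Treg in both media (1.78 ± 0.41 and 2.03 ± 0.34), lost without 3 libraries in the first and without replicate 3 of Tcon in the second. In the first medium Ahr was lower in Treg (-0.87 ± 0.14), as was Bhlhe40 (-0.67 ± 0.18), and Id3 was higher (0.94 ± 0.25); the last pair lost their calls without 4 and 6 of the 6 libraries taken singly.

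Genes whose group means followed those of the 10 were looked for among the 9945 genes whose mean reached 5 CPM, by Pearson's correlation of log2 CPM over the 10 group means, which share the 2 times and TGF-beta. The closest were Aqp3 (0.981), Timp2 (0.981) and Cep95 (0.979) for Tgfbr1, Rnf139 (0.989), Ubxn7 (0.986) and Hbp1 (0.976) for Tgfbr2 and Ttc3 (0.947), Zfp317 (0.911) and Jaml (0.902) for Tgfbr3. For Smad2 they were Ak7 (0.994), Tbc1d17 (0.992) and Cdip1 (0.992), and for Smad3 Gm20300 (0.906), Nr2f6 (0.868) and Man2a2 (0.864). For Smad7 they were Tmem184b (0.993), Pdlim5 (0.991) and Smurf1 (0.990), for Ski Arhgap27os3 (0.983), Cotl1 (0.978) and Mapkapk3 (0.975), and for Pmepa1 Lzts2 (0.987), Tmem184b (0.986) and Rnf149 (0.985). Skil was closest to Ldlrad4 (0.994), Tnks (0.989) and Ikzf4 (0.986), and Ldlrad4 to Skil (0.994), Adam19 (0.990) and Ctsw (0.986). Smad7 was thus followed by Smurf1, the ligase it recruits, and Skil and Ldlrad4 by each other, which describes 10 points and was not tested.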

How the data were processed

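Polyadenylated RNA was sequenced as single reads of 65 bases from strand-specific libraries, per the labels' protocols. The submitters' processing notes name STAR 2.7.3a, HTSeq 0.12.4, DESeq2 1.30.1 and the build GRCm39. The authors deposited whole-number counts per Ensembl gene identifier, not normalized. Neither the annotation release nor the strand setting of the counting is stated in those sources. Entries without a gene entered neither library sizes nor tests: 13.3% to 17.0% of the entries per library were reads of low alignment quality, 5.72% to 11.2% reads in no gene and 1.01% to 1.13% ambiguous reads. Symbols came from a table of gene names. Exon lengths and gene overlaps came from the GENCODE M21 annotation and promoters from RefSeq, both of another build (GRCm38). The 3333 identifiers without a symbol took 0.332% to 1.05% of the gene counts.

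Libraries were grouped as labelled. Counts were scaled by TMM. All 29 libraries entered 1 fit with a mean for each group and no covariate, and the quasi-likelihood F test was run (edgeR 4.0.16, R 4.3.3). The filter on low counts was filterByExpr, with a minimum count of 10 and a minimum total of 15. The 20 comparisons are 15 between 2 groups and 5 interactions. Within a comparison p-values were adjusted over all 14375 genes by the method of Benjamini and Hochberg, and a gene below 0.05 is called. Fold changes use edgeR's prior count of 0.125, and the SE of a log2 change is its size over the root of F. The procedure was tested on simulated data. Alternatives were RLE scaling, no filter on low counts, DESeq2 1.42.0, fits of only the compared groups, a block for the replicate number, each library left out in turn and, added after seeing the data, the 6 libraries of number 1 at 72 h left out together.

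Replicate numbers, which the labels give, were checked for pairing. The deviations of same-numbered libraries from their group means correlated at 0.12 to 0.77 across genes within a time point, in every pair of groups with 3 shared numbers, and at -0.06 to 0.11 between time points. Within a time point, the numbers were therefore read as pairing the libraries. The main fit and the fits with 1 library left out do not use this pairing, so their SE and adjusted p are unpaired. With the block within a time point, 15 calls of the 10 genes were gained and 0 lost. Calls lost without 1 library were not refitted with the block. The 10 genes, the lists of other pathway genes, the comparisons and the alternatives were chosen with earlier results of these data known. Of each pathway list, the called genes are named, at most 4 by smallest p. Likeness was measured for genes whose mean reached 5 CPM. Depth limits single low values: at 9754511 to 14315313 gene counts per library, the lowest count among the 10 genes was 16, for Ldlrad4.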

Additional observations from a re-analysis of the deposited data

Results flagged for a closer look

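A difference between the 2 times in the change with TGF-beta singled out 4 results, each by a test of the difference itself (the log2 change at 72 h minus that at 24 h, edgeR, adjusted over all genes). That test called 2 of the 10 genes with lactic acid, against 14.4% of all genes, which is near. Without lactic acid it called 2 of 10, against 5.73%. For Tgfbr3 the difference was 0.88 with lactic acid (adjusted p = 0.000770), from changes of 1.26 at 72 h and 0.38 at 24 h. Without lactic acid it was 0.88 (adjusted p = 0.00318), from 1.31 at 72 h and 0.43 at 24 h. For Ldlrad4 it was 1.95 with lactic acid (adjusted p = 0.000674), from 5.44 and 3.50. For Ski it was -1.04 without lactic acid (adjusted p = 0.00784), from 0.59 at 72 h and 1.64 at 24 h, a call lost without replicate 2 of 72 h Tcon with neither addition (-0.72, adjusted p = 0.0777). Of the 4 tested CD8+ T and NK cell markers, 3 passed in the same comparison with lactic acid, Cd8a (6.57, adjusted p = 0.00309), Klrd1 (3.18, adjusted p = 0.00222) and Xcl1 (5.30, adjusted p = 3.64e-09). Without lactic acid 2 passed, Cd8a (5.96, adjusted p = 0.0105) and Xcl1 (3.38, adjusted p = 1.88e-06). Their part in these results was not tested.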

How the results depend on the processing

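No log2 change of the 10 genes reversed among the calls, and all 100 group levels stayed within 1 SD under RLE scaling. Over the 10 genes in 20 comparisons, 199 of 200 calls were alike with DESeq2, 199 with RLE scaling, 195 with no filter and 190 with the compared groups alone, where 7 were lost. With the replicate block within a time point 145 of 160 were alike and 15 were gained. With the block over both times 55 of 60 were alike and 5 were gained. Leaving out 1 library at a time left 1420 alike, with 22 lost and 8 gained. Without the libraries of number 1 at 72 h 136 of 150 were alike, 13 were gained and 1 was lost. The numbers of the 10 genes called moved as follows, the causes not being tested. With the replicate block, those of lactic acid became 2 (in place of 1) in Treg, 2 (1) in 72 h Tcon with TGF-beta, 1 (0) at 72 h without TGF-beta, 3 (0) at 24 h with TGF-beta and 2 (0) at 24 h without it. Treg against Tcon without lactic acid became 2 (1), TGF-beta by time 4 (2) with and 4 (2) without lactic acid, and lactic acid by TGF-beta at 72 h 1 (0). With the compared groups alone, lactic acid gave 0 (1) in Treg, 0 (1) in 72 h Tcon with TGF-beta and 1 (0) at 24 h without TGF-beta, and Treg against Tcon 1 (2) with and 0 (1) without lactic acid. At 24 h without TGF-beta, lactic acid gave 1 (0) with no filter and 1 (0) with DESeq2. TGF-beta by time gave 3 (2) with lactic acid under the block over both times, and 5 (2) with and 4 (2) without it when the libraries of number 1 at 72 h were left out. With single libraries left out the ranges were 0 to 1 for lactic acid at 72 h with and without TGF-beta, 1 to 2 for Treg against Tcon with lactic acid, 2 to 3 and 1 to 3 for TGF-beta by time with and without lactic acid, and 7 to 9 over the 4 TGF-beta comparisons. Smaller moves were those of TGF-beta to 6 (8) at 72 h without lactic acid with the groups alone, to 9 (8) at 72 h with it under the block and without number 1, and to 7 (8) at 24 h with it under RLE scaling and with no filter. For 72 h against 24 h with lactic acid the count was 9 (6) under the block over both times and with no filter, 8 without number 1 and 7 with the groups alone. With TGF-beta it was 8 (7) under that block and with the groups alone and 9 without number 1, with both additions 9 (8) without number 1, and with neither 3 (4) with the groups alone and 5 without number 1. With single libraries left out these 4 counts ranged, in that order, over 6 to 7, 6 to 8, 8 to 8 and 3 to 4. The block over both times, between which the numbers did not pair, added falls of Pmepa1 (-0.41, adjusted p = 0.0106), Ski (-0.25, adjusted p = 0.0268) and Skil (-0.36, adjusted p = 0.0276) with lactic acid and of Tgfbr2 (-0.37, adjusted p = 0.0485) with TGF-beta.

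Counts over all genes moved more. With the block they became 6526 (3517) for TGF-beta at 72 h without lactic acid, 4655 (1788) and 4562 (1625) at 24 h with and without it. For lactic acid they became 2833 (504) in Treg, 2211 (311) and 492 (10) at 72 h with and without TGF-beta, and 963 (33) and 614 (12) at 24 h. For Treg against Tcon they became 1832 (366) and 422 (31), for TGF-beta by time 4831 (2068) and 2794 (823), and for lactic acid by TGF-beta at 72 h 652 (15). With the groups alone they were 1058 for TGF-beta at 72 h without lactic acid, 3305 and 3856 at 24 h, 16, 38, 0, 90 and 146 for lactic acid in that order, 193 and 0 for Treg against Tcon, 545 for TGF-beta by time without lactic acid and 1 for lactic acid by TGF-beta at 72 h. For lactic acid at 72 h with TGF-beta, 72 h without it, 24 h with it and 24 h without it, DESeq2 called 490, 59, 80 and 51 genes, edgeR with no filter 543, 65, 49 and 37, and RLE 302, 12, 21 and 1. DESeq2 and no filter gave 72 and 95 for Treg against Tcon without lactic acid and 53 and 47 for lactic acid by TGF-beta at 72 h. Without the libraries of number 1 at 72 h, lactic acid gave 1132, 816 and 2 at 72 h (Treg, Tcon with and Tcon without TGF-beta), Treg against Tcon 875 and 131, TGF-beta by time 3929 and 1742, and lactic acid by TGF-beta 77. With 1 library left out, counts ranged from 976 to 1756 for TGF-beta at 24 h with and 926 to 1543 without lactic acid, from 0 to 270 for lactic acid at 72 h without TGF-beta, from 4 to 24 and 1 to 2 at 24 h with and without TGF-beta, from 138 to 630 in Treg and 111 to 318 in Tcon with TGF-beta, from 100 to 369 and 2 to 50 for Treg against Tcon, from 534 to 1007 for TGF-beta by time without lactic acid, from 6 to 30 for lactic acid by TGF-beta at 72 h, and from 3973 to 6760 for 72 h against 24 h with neither addition. The block over both times gave 1279 (823) for TGF-beta by time without lactic acid. Among the 84 other pathway genes, calls with the block became 39 (23) and 40 (20) for TGF-beta at 24 h in media with and without lactic acid, 26 (6) in Treg and 26 (3) in 72 h Tcon with TGF-beta for lactic acid, 19 (5) and 6 (2) for Treg against Tcon, and 35 (15) and 21 (7) for TGF-beta by time with and without lactic acid. With the groups alone TGF-beta gave 14 (38) at 72 h and 37 (20) at 24 h without lactic acid. Without the libraries of number 1 at 72 h, lactic acid gave 13 (6) in Treg and 11 (3) in Tcon with TGF-beta, Treg against Tcon 9 (5) and 5 (2), and TGF-beta by time 32 (15) and 13 (7). DESeq2 gave 6 (3) for lactic acid in 72 h Tcon with TGF-beta, and 12 (7) for TGF-beta by time where lactic acid was absent.

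Low counts limit Ldlrad4 without TGF-beta, where 1 library of 72 h Tcon with lactic acid held 16 reads, and the 2 libraries of 72 h Tcon with neither addition limit each comparison they enter. The sex of replicate 1 cannot be told apart from other properties of its libraries.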
